A study of Mus musculus with 6 samples.

Results

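The MHC class II genes examined here were 10 of the 31253 genes counted in each of 6 mouse liver libraries. They were taken by symbol from the deposited gene annotation: the classical chain genes H2-Aa, H2-Ab1 and H2-Eb1, the invariant chain gene Cd74, the transactivator gene Ciita, and the accessory chain genes H2-DMa, H2-DMb1, H2-DMb2, H2-Oa and H2-Ob. All 10 were detected. Their levels were compared between cell classes, with mesothelial cells, endothelial cells and cholangiocytes set against dendritic, B and T cells, and within each class between genotypes.

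The knockout mice were Stingfl/fl Cdh5-Cre+ and the control mice were their Stingfl/fl Cdh5-Cre- littermates, with 3 mice per genotype. STING, encoded by Sting1, is an adaptor of cytosolic DNA sensing, and both groups carried the floxed allele. All mice were housed pathogen-free and ate normal chow until 8 weeks of age. All then received a western diet with CCl4 for 12 weeks, a model of metabolic dysfunction-associated steatohepatitis (MASH), so there was no healthy liver in the series. Cre was driven by Cdh5, the gene of the endothelial adhesion protein VE-cadherin. Cdh5-Cre lines that are active from the embryo also recombine in part of the blood lineage, and the labels do not say which line was used or which exons were floxed. By its labels each sample is of sinusoidal endothelial cells, whereas the protocol describes dissociated liver. Of 41744 kept cells, 6.31% were endothelial-like, 0.462% (193 cells) were sinusoidal-like, 24.9% were T-like and 20.1% were B-like.

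MHC class II molecules present peptides from endosomes to CD4 T cells. The alpha and beta chains pair in the endoplasmic reticulum with the invariant chain, which fills the groove until H2-DM exchanges its remnant for peptide, and H2-O restrains H2-DM. Dendritic cells, B cells and macrophages carry class II constitutively under CIITA, many other cells can acquire it under interferon-gamma, and resting mouse T cells lack it. CIITA does not bind DNA itself: it is recruited by RFX, CREB1 and NF-Y proteins that sit on a conserved promoter module ending in the NF-Y site known as the Y box.

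The part of each promoter that held the letters of this module is shown, since it was found in 6 of the 10 members. RefSeq promoter windows on GRCm38.p6, from 250 bases before to 50 after the start, matched 7 of the 10 members. H2-Ab1, Ciita and Cd74 were not matched. H2-Aa, H2-Eb1, H2-DMb1, H2-DMb2, H2-Oa and H2-Ob each held the letters AAC (capitals, left), then 23 to 26 bases, then TGATTGG (capitals, right, the Y box letters). Each line gives the gene strand, 5′ to 3′.
H2-Aa, chr17:34287859-34287910, minus strand: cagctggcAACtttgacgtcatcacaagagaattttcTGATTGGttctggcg
H2-Eb1, chr17:34305770-34305820, plus strand: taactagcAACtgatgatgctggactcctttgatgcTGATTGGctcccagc
H2-DMb1, chr17:34153091-34153142, plus strand: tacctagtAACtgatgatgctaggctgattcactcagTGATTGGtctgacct
H2-DMb2, chr17:34145120-34145171, plus strand: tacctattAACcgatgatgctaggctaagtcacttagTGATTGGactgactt
H2-Oa, chr17:34092297-34092348, plus strand: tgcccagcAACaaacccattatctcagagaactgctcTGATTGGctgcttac
H2-Ob, chr17:34238812-34238860, plus strand: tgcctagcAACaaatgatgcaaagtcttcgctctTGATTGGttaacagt

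The spacing was set from these members' own sequences, so the match describes them and tests nothing. Searched on both strands, AAC followed by TGATTGG at this spacing stood in 151 of 32851 promoters (0.46%), and TGATTGG alone stood in 2568 (7.82%). With GCAAC in place of AAC, 15 promoters (0.0457%) matched, 4 of them members. Both H2-DMa windows lacked the spaced letters. The H2-DMb1 and H2-DMb2 windows, which belong to neighbouring paralogs, were identical at 45 of 52 bases. Of the 31-base words in the last 400 bases of H2-DMb1 transcripts, where a 3′ library reads, 13.5% also occurred in H2-DMb2 transcripts and 0% the other way round, so a small part of the H2-DMb1 signal is uncertain. On GRCm38 (GENCODE M21 annotation), all members but a pair lie on chromosome 17 between 34092340 (H2-Oa) and 34316674 (H2-Eb1). Ciita lies on chromosome 16 (10480059 to 10528418) and Cd74 on chromosome 18 (60803848 to 60812652).

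The libraries held between 5133 and 9212 barcodes and between 55017937 and 73867890 UMIs (unique molecular identifiers, 1 per captured transcript), with median UMIs per barcode between 4695.5 and 7345. Pairs of libraries shared between 0.0974% and 0.328% of their barcodes. Cells were clustered with the 10 members left out, and clusters were named from marker lists, so each name below means cells like that type by those markers. There were 15 named classes, and 7279 cells stayed unnamed. Levels are in CPM, the UMIs of a gene scaled to the summed UMIs of a class in a mouse. They are 3′ counts not scaled to length, so they are compared between cells and not between genes. A summed class level cannot tell fewer positive cells from less RNA per cell.

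Sting1, the targeted gene, was measured first. In the endothelial class it stood at 22.1, 14.99 and 22.03 CPM in knockout mice, against 27.3, 26.6 and 26.9 CPM in control mice. All 3 knockout values lay below the control values, with a log2 fold change of −0.48 (SE 0.18, edgeR adjusted p = 0.74) that did not pass the threshold of 0.05. In B cells it stood at 3.97, 5.05 and 5.16 CPM in knockout mice, against 7.21, 7.75 and 9.48 CPM in control mice (log2 fold change −0.79, edgeR adjusted p = 0.49). A 3′ tag need not follow a deletion elsewhere in the gene, so these values neither establish nor refute recombination.

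Classical chain and Cd74 RNA was highest in conventional and mature dendritic cells, B cells and a few monocyte and macrophage-like cells, and much lower in every structural class. H2-Ab1, the beta chain of I-A, stood at 5960.2, 4722 and 5669 CPM in knockout mice and 4895, 4624 and 5925 CPM in control mice in type 1 conventional dendritic (cDC1) cells. In B cells it stood at 2262, 1637 and 1996 CPM in knockout mice and 1699, 1456 and 1913 CPM in control mice. The lowest cDC1 mouse was above the highest B mouse in both genotypes. Mature dendritic cells, marked by Ccr7 and Fscn1, lay between them, at 2790.2 CPM on average over the 6 mice. The 34 monocyte and macrophage-like cells averaged 1614 CPM and overlapped B cells, plasmacytoid dendritic cells stood at 565 CPM and plasma cells at 359.8 CPM.

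Mesothelial cells, which line the liver surface, followed at a lower level. H2-Ab1 in them averaged 157 ± 20.03 CPM in knockout mice and 109 ± 20.5 CPM in control mice (SD, n = 3 each). The mean over 6 mice was 133 CPM, below plasma cells in 6 of 6 mice with no overlap of ranges. Lymphatic endothelial cells (79.2 CPM), neutrophils (78.1), fibroblasts (69.0), hepatocytes (68.4), cholangiocytes (59.3), NK/ILC1 cells (48.3) and smooth muscle cells (39.1) followed with overlapping ranges. The endothelial class as a whole averaged 191 ± 53.1 CPM in knockout mice and 237 ± 141 CPM in control mice, a higher mean than in any of its named subtypes. At the low end stood venous endothelial cells (18.3), arterial endothelial cells (17.0), T cells (12.1) and sinusoidal endothelial cells (9.23), whose ranges also overlapped. The sinusoidal mean gave equal weight to libraries with as few as 2 cells. Pooled over all 193 sinusoidal cells, H2-Ab1 stood at 20.6 CPM, from 22 UMIs, so their place within this low group is not settled.

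**Figure D1:**
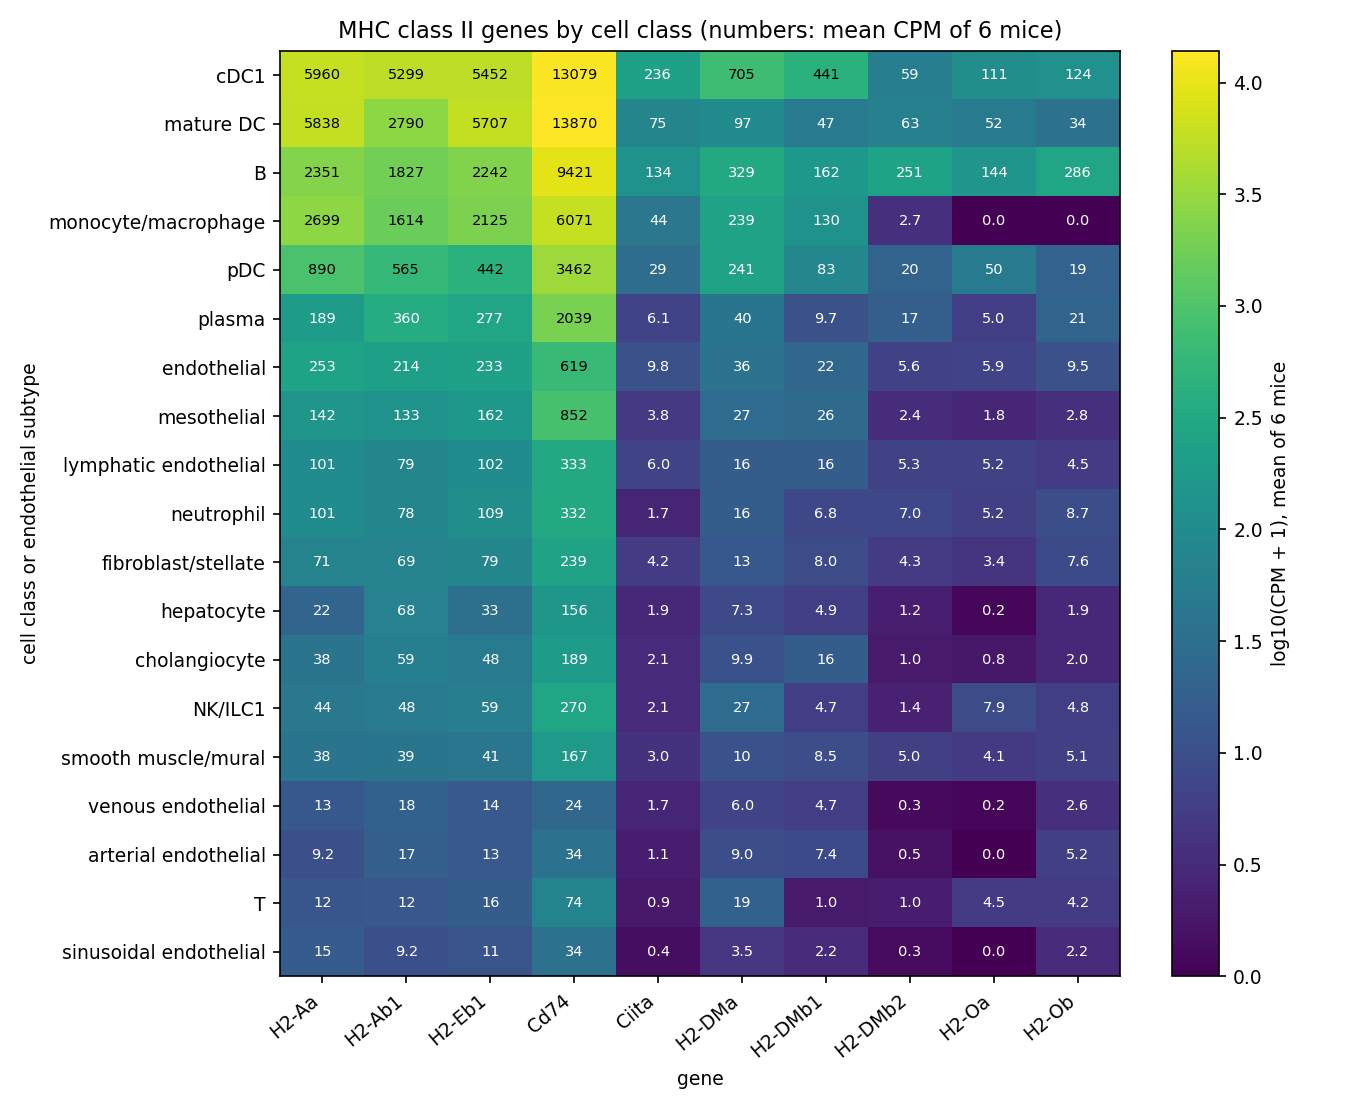
Level of each of the 10 genes (columns) in each cell class or endothelial subtype (rows, ordered by H2-Ab1), in CPM, as the mean of 6 mice; the colour is log10(CPM + 1). The cDC1, mature dendritic, B and monocyte/macrophage rows are highest for the classical chains, and the venous, arterial, T and sinusoidal rows are lowest, with H2-Ab1 between 9.23 and 18.3 CPM. The sinusoidal row includes libraries with as few as 2 cells, and its H2-Ab1 level pooled over cells was 20.6 CPM.

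H2-Aa, the alpha chain of I-A, showed a similar order. It stood at 145, 155 and 186 CPM in knockout and 96.5, 126 and 141 CPM in control mesothelial cells. In cholangiocytes, the epithelial cells of bile ducts, it stood at 63.7, 43.1 and 15.01 CPM in knockout mice and 24.3, 38.7 and 44.5 CPM in control mice. In T cells it stood between 7.91 and 14.7 CPM in all 6 mice. H2-Eb1, the beta chain of I-E, stood at 168, 189 and 226 CPM in knockout and 106, 141 and 144 CPM in control mesothelial cells, against 10.6 to 23.6 CPM in T cells. The mesothelial mice were thus all above the T mice for both genes.

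Cd74, the invariant chain, reached 13869.7 CPM in mature dendritic cells, 13079 CPM in cDC1 cells and 9421 CPM in B cells as means over 6 mice, with monocyte and macrophage-like cells at 6071 CPM. In mesothelial cells it stood at 724, 1117 and 1395 CPM in knockout mice, against 494, 745 and 639 CPM in control mice. Its mesothelial mean of 852 CPM lay below plasma cells (2039 CPM) and above lymphatic endothelial cells (333 CPM). The class as a whole carried more Cd74 per H2-Ab1 UMI than the cDC1 class. The ratio was 6.60 in mesothelial cells (5.36 to 8.02 over 6 mice), 3.14 in cholangiocytes (2.91 to 3.69) and 2.79 in endothelial cells (2.44 to 4.03), against 5.15 in B cells (4.95 to 5.43) and 2.45 in cDC1 cells (2.39 to 2.69). Of the endothelial UMIs of H2-Aa, H2-Ab1, H2-Eb1 and Cd74 together, 87.8% lay in 186 cells with leukocyte genes, described below. The ratio was 1.23 in venous and 4.42 in lymphatic endothelial cells, from 128 and 280 H2-Ab1 UMIs. The mesothelial and cDC1 ranges did not overlap. The mesothelial range overlapped that of B cells and lay within that of T cells, at 6.06 (5.23 to 9.24). Mature dendritic (5.15), plasma (5.82) and plasmacytoid dendritic (6.09) cells were also above cDC1 cells. A higher ratio than in cDC1 cells was thus not particular to mesothelial cells.

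Monocyte and macrophage-like cells were rare: 8, 7 and 2 cells in knockout mice, against 2, 3 and 12 cells in control mice. H2-Ab1 in them stood at 579, 990.5 and 483 CPM in knockout mice and at 2416, 2759 and 2455 CPM in control mice. These few cells were below the minimum of 20 cells per library and were not tested.

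Ciita, the transactivator on which class II transcription depends, was highest in cDC1 cells (236 CPM over 6 mice) and B cells (134 CPM), with mature dendritic cells at 75.2 CPM. The ranges of these 3 classes did not overlap. It averaged 43.7 CPM in monocyte and macrophage-like cells, 28.8 CPM in plasmacytoid dendritic cells and 6.13 CPM in plasma cells. Endothelial cells held 5.92, 9.995 and 8.94 CPM in knockout mice and 9.63, 6.65 and 17.9 CPM in control mice. Within that class, Ciita stood at 79.0 CPM in the 186 cells with leukocyte genes described below. The other endothelial sub-clusters held 0 to 5.66 CPM, apart from 20 cells led by neutrophil genes at 23.9 CPM. Mesothelial cells held 5.57, 3.51 and 3.33 CPM in knockout mice and 2.84, 3.93 and 3.51 CPM in control mice, from 219 UMIs in all. Cholangiocytes held 2.95, 2.26 and 0.672 CPM in knockout mice and 2.07, 2.75 and 2.17 CPM in control mice, and T cells averaged 0.935 CPM. The sinusoidal and arterial subtypes held 1 Ciita UMI each.

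H2-DMa and H2-DMb1, which encode the alpha and a beta chain of the peptide exchange factor H2-DM, followed different orders in the structural classes. H2-DMb1 stood at 29.1, 30.0 and 30.9 CPM in knockout and 21.0, 21.1 and 22.1 CPM in control mesothelial cells, against 54 UMIs and 0.993 CPM on average in T cells. It averaged 16.0 CPM in cholangiocytes and 15.7 CPM in lymphatic endothelial cells, above plasma cells at 9.71 CPM. Mesothelial H2-DMa stood at 26.4, 29.2 and 28.7 CPM in knockout mice and at 21.2, 25.6 and 28.5 CPM in control mice. It was also present in T cells, at 19.9, 21.4 and 18.6 CPM in knockout and 16.2, 13.4 and 22.4 CPM in control mice.

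H2-DMb2, the other H2-DM beta chain gene, was the most B cell-weighted of the DM genes. It stood at 305, 249 and 296 CPM in knockout and 238, 175 and 245 CPM in control B cells, against a 6-mouse mean of 63.1 CPM in mature dendritic cells and 58.7 CPM in cDC1 cells. Mesothelial cells averaged 2.36 CPM, cholangiocytes 0.991 CPM and T cells 1.03 CPM. Both paralogs were measured in the same cells, so their ratio does not depend on depth. H2-DMb2 per H2-DMb1 was 0.085 in mesothelial cells (0.0454 to 0.185 over 6 mice), 0.0658 in cholangiocytes (0.0303 to 0.157) and 0.256 in endothelial cells (0.131 to 0.468). It was 0.129 in cDC1 cells (0.114 to 0.155), 1.32 in mature dendritic cells (1.16 to 1.83) and 1.58 in B cells (1.27 to 1.78). The mesothelial and cholangiocyte class ratios overlapped those of cDC1 cells and lay below every B cell and mature dendritic cell value. Both classes held leukocyte-led sub-clusters. H2-DMb2 and H2-DMb1 stood at 37.5 and 48.6 CPM in 91 B-led mesothelial cells, and at 0.91 and 23.6 CPM in the largest mesothelial sub-cluster. In cholangiocytes they stood at 7.07 and 21.0 CPM in 196 T-led cells, and at 0.276 and 12.1 CPM in the largest sub-cluster. In 186 endothelial-class cells with leukocyte genes both stood at 47.9 and 158 CPM. The part of leukocyte RNA in the ratios was not tested.

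**Figure D2:**
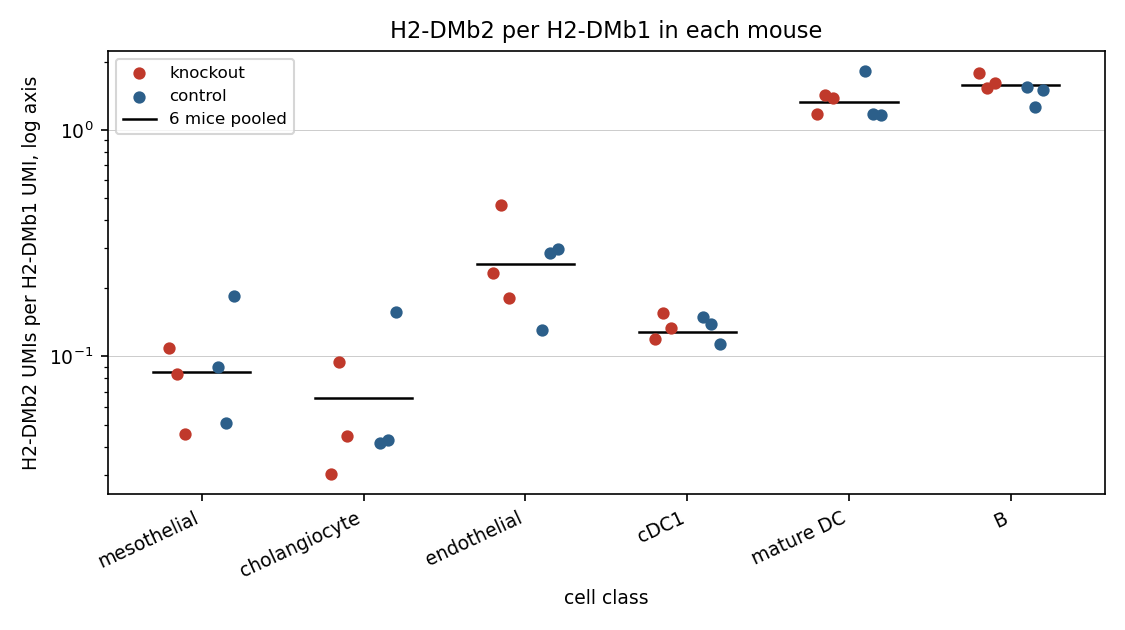
H2-DMb2 UMIs per H2-DMb1 UMI (log axis) in each mouse for 6 cell classes; points are knockout or control mice and the black bar is the ratio of the 6 mice pooled. Mesothelial, cholangiocyte, endothelial and cDC1 mice lie at 0.468 or below, and all mature dendritic and B cell mice lie above 1. The mesothelial, cholangiocyte and endothelial values include cells of leukocyte-led sub-clusters.

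H2-Oa and H2-Ob, the chains of the H2-DM modulator H2-O, were B cell and dendritic cell genes in these livers. H2-Oa stood at 192, 162 and 155 CPM in knockout and 129, 99.7 and 129 CPM in control B cells. cDC1 cells held 131, 118 and 116 CPM in knockout mice and 96.7, 104 and 98.2 CPM in control mice. Mesothelial cells averaged 1.77 CPM and cholangiocytes 0.846 CPM, both below the 4.55 CPM of T cells. H2-Ob stood at 298, 294 and 306 CPM in knockout and 286, 238 and 297 CPM in control B cells, and T cells averaged 4.21 CPM. H2-O UMIs (both genes) per H2-DMa UMI numbered 0.170 in mesothelial cells (0.102 to 0.266 over 6 mice), against 0.327 in cDC1 cells (0.291 to 0.383) and 1.31 in B cells (1.16 to 1.64), and these 3 ranges did not overlap.

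Whether the non-professional classes carried more class II RNA than a class that lacks it, and how far below the professional classes they lay, was tested with edgeR's quasi-likelihood test on summed UMIs with the mouse as block. Against B and cDC1 cells, all 10 members were lower in each of the mesothelial, endothelial and cholangiocyte classes, 60 of 60 contrasts. Of all genes tested against B cells, 39.8% were lower and 47.3% higher in mesothelial, 39.8% lower and 42.8% higher in endothelial, and 40% lower and 46.6% higher in cholangiocyte cells. Against cDC1 cells, 34.8% of all genes were lower and 42.9% higher in mesothelial, 36.4% lower and 40.7% higher in endothelial, and 36.4% lower and 43% higher in cholangiocyte cells. The median member lay 4.14 (log2) below B cells in mesothelial, 3.68 in endothelial and 6.12 in cholangiocyte cells, where the medians of all genes were 0.18, 0.04 and 0.14 above. In mesothelial cells the distance was smallest for H2-DMb1 (log2 fold change −2.87, SE 0.09, edgeR adjusted p = 1.33e-14) and largest for H2-DMb2 (−7.01, SE 0.18, edgeR adjusted p = 1.14e-14). Cd74 lay between (−3.75, SE 0.21, edgeR adjusted p = 8.53e-10).

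Against T cells, 7 members were higher and 2 lower in mesothelial cells, beside 44.4% of all genes higher and 41.2% lower. The log2 fold changes were 3.19 for H2-Ab1 (SE 0.15, edgeR adjusted p = 4.89e-10), 3.21 for Cd74 (SE 0.21, edgeR adjusted p = 6.17e-08) and 4.38 for H2-DMb1 (SE 0.20, edgeR adjusted p = 2.65e-11). Ciita was 1.81 higher (SE 0.28, edgeR adjusted p = 2.86e-05). The H2-O genes were lower, by −1.66 for H2-Oa and −0.87 for H2-Ob. In cholangiocytes 6 members were higher and 3 lower of 9 tested, beside 43.5% and 41.4% of all genes. H2-Ab1 was 1.93 higher (SE 0.27, edgeR adjusted p = 0.000124) and H2-DMb1 3.66 higher (SE 0.23, edgeR adjusted p = 2.26e-09), while H2-DMa was lower (−1.20, SE 0.16). In the endothelial class 9 of 10 members were higher and none lower, beside 39.9% and 40.4% of all genes, with H2-Ab1 3.90 higher (SE 0.26, edgeR adjusted p = 3.78e-07). Scaling by total UMIs alone moved the median of all genes against T cells to 0.31 in mesothelial and 0.32 in cholangiocyte cells on the log2 scale (0.06 and 0.05 with TMM scaling), and turned no member round.

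**Figure D3:**
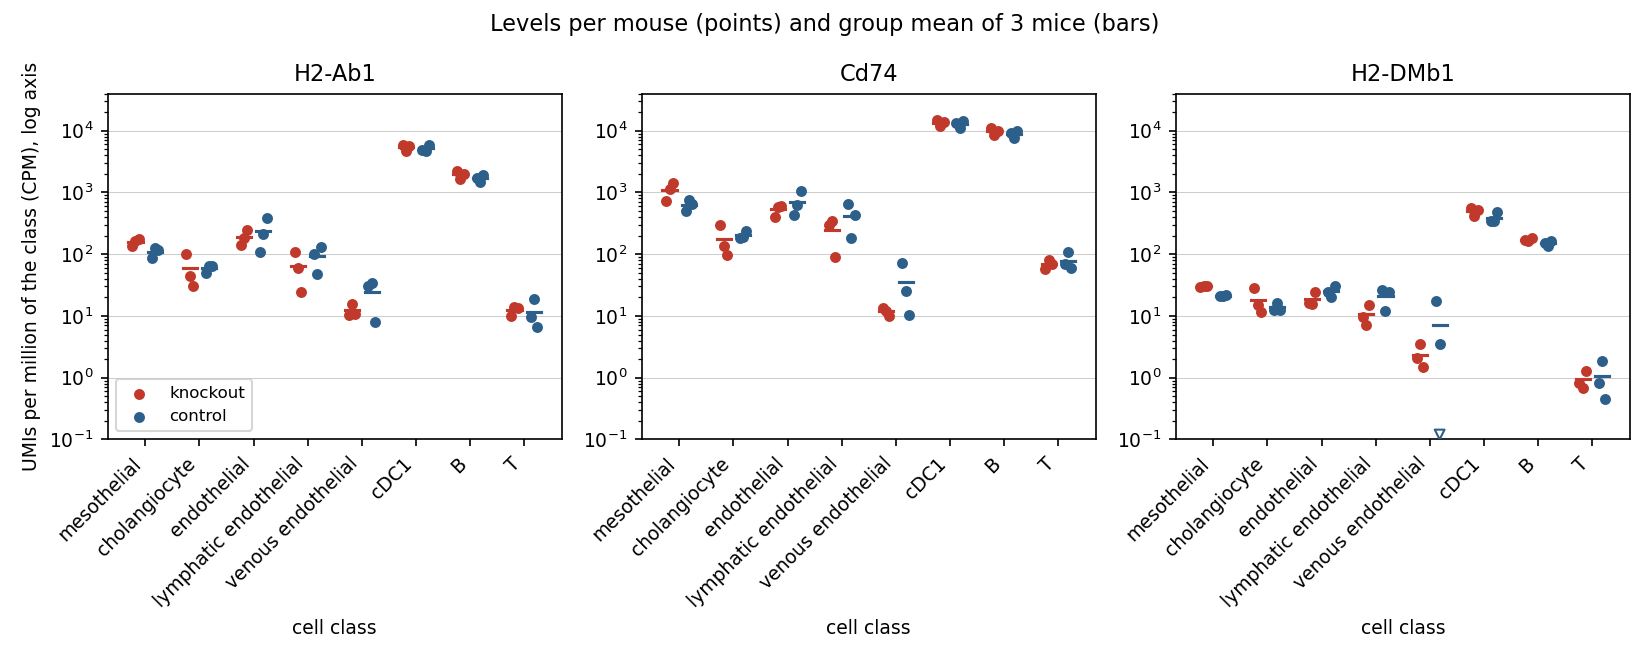
H2-Ab1, Cd74 and H2-DMb1 in each mouse (points) with the mean of 3 mice (bars), in CPM on a log axis, for presenter classes and endothelial subtypes, then cDC1, B and T cells; an open triangle at the lower edge marks a mouse with 0 UMIs. All 6 mesothelial mice lie above all 6 T cell mice for the 3 genes, and venous endothelial mice overlap the T cell mice for H2-Ab1.

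The share of cells with a UMI was compared after each cell was thinned to 2000 UMIs. Intervals are exact binomial (Clopper-Pearson, 95%) and cover counting error only. In mesothelial cells 59.6% (57.7% to 61.5%) of 2528 cells held a Cd74 UMI and 20.1% (18.5% to 21.7%) an H2-Ab1 UMI, at a median unthinned depth of 20004 UMIs. In cholangiocytes the shares were 19.7% (18.03% to 21.4%) and 8.57% (7.42% to 9.83%), at a median depth of 15287 UMIs. In endothelial cells 13.6% (12.2% to 14.99%) held Cd74 and 9.88% (8.73% to 11.1%) H2-Ab1, at a median depth of 9390 UMIs. T cells, which should lack the classical chains and serve here as the background class, held Cd74 in 9.12% (8.54% to 9.72%) of 9310 cells and H2-Ab1 in 1.74% (1.48% to 2.03%), at a median depth of 5186.5 UMIs. The part of free RNA in these shares was not tested. The shares of all 3 presenter classes lay above the T cell intervals. Unthinned, Cd74 was found in 88.6% of mesothelial cells, 57.1% of cholangiocytes, 22.9% of endothelial cells and 17.5% of T cells, and H2-Ab1 in 67.2%, 39.2%, 19.4% and 4.30% in the same order. In B cells 99.9% held Cd74 and 94.7% H2-Ab1.

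The UMIs were spread over cells differently in the mesothelial and endothelial classes. Of the endothelial UMIs of H2-Aa, H2-Ab1, H2-Eb1 and Cd74 together, 87.6% lay in the top 5% of cells and 62.1% of the cells held none. Of the mesothelial UMIs 27.8% lay in the top 5% of cells, 7.63% of cells held none and the median cell held 15. The cholangiocyte share in the top 5% of cells was 49.4%, with 29.8% of cells at none. In cDC1 cells it was 11.5% and in B cells 12.6%. Cells that also held a UMI of 1 of 23 lineage-defining leukocyte genes (such as Cd3e, Cd79a and Xcr1) made up 33.5% of endothelial cells and held 95.2% of the 4 genes' UMIs. In mesothelial cells the figures were 37.6% and 53.1%, and in cholangiocytes 29.4% and 55.6%. These figures were not thinned, and the share of all UMIs in such cells was not measured. The part of depth in them was not tested.

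Sub-clustering located these cells. A single endothelial sub-cluster of 186 cells (7.07% of the class) held 87.8% of its UMIs of the 4 genes. It had H2-Ab1 at 1959.8 CPM and Cd74 at 5376 CPM, and 93.5% of its cells held a lineage-defining leukocyte UMI. Its leading genes were Iglc2, an immunoglobulin light chain, and Wdfy4, Plbd1 and Cd83, which dendritic cells express. Its median doublet score was 0.147, below the threshold of 0.2644 at which cells were removed. Its cells numbered 26, 20 and 30 in knockout mice, against 9, 44 and 57 in control mice. The other endothelial sub-clusters held H2-Ab1 at 10.4 to 72.1 CPM, apart from 20 cells led by neutrophil genes at 382 CPM. Whether doublets make up the 186 cells was not tested beyond the score.

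In the mesothelial class Cd74 and the classical chains were found in all 12 sub-clusters. Cd74 was lowest, 393 CPM, in 158 cells led by Eya4 and Barx1. It stood at 928 CPM in 509 cells led by Creb5 and Thbs1 and at 1247.5 CPM in 435 cells led by Lgals7, Lgals1 and Krt14. A sub-cluster of 91 cells led by B cell genes reached 2079.8 CPM and held 11.1% of the UMIs of the 4 genes. That sub-cluster also held H2-DMb2 at 37.5 CPM, H2-Oa at 23.9 CPM and H2-Ob at 37.1 CPM, which stood at 0 to 4.77 CPM in the other 11. In cholangiocytes, 196 cells (8.62%) led by T cell and leukocyte genes held 32.4% of the UMIs, with H2-Ab1 at 172 CPM, and the other sub-clusters held 28.1 to 76.9 CPM.

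**Figure D4:**
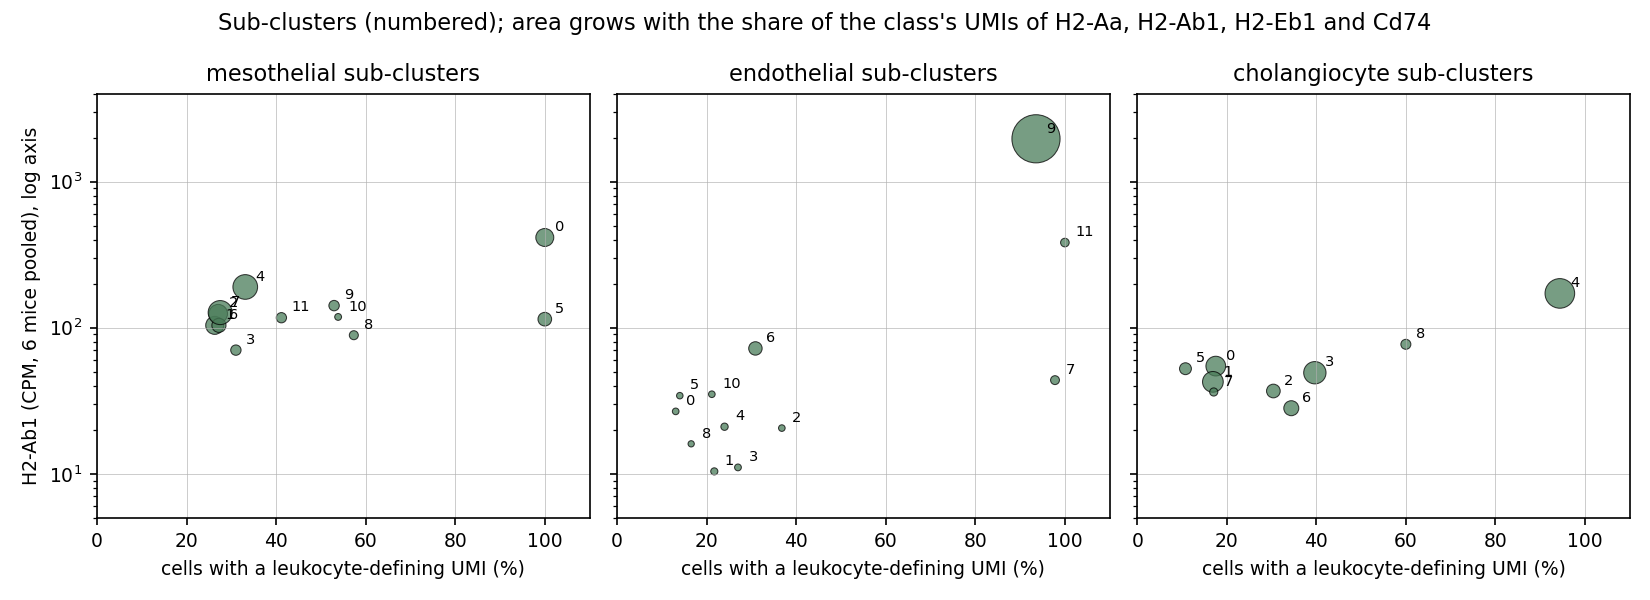
H2-Ab1 level (CPM, 6 mice pooled, log axis) of each numbered sub-cluster against the percentage of its cells with a lineage-defining leukocyte UMI, for the mesothelial, endothelial and cholangiocyte classes; the area of a circle grows with the sub-cluster's share of the class's UMIs of H2-Aa, H2-Ab1, H2-Eb1 and Cd74. Endothelial sub-cluster 9, at 1959.8 CPM and 93.5% of cells, holds 87.8% of the endothelial UMIs, while mesothelial sub-clusters 4 and 7, at 33.1% and 27.5% of cells, hold 22.1% and 20.9% of the mesothelial UMIs.

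Leaving out every cell with a lineage-defining leukocyte UMI, a comparison added after the values were seen, changed the endothelial result. Against T cells, 1 of 7 endothelial members tested was then higher, beside 39.5% of all genes, namely H2-Ab1 (log2 fold change 0.95, edgeR adjusted p = 0.0069), and Cd74 was at −0.47 (edgeR adjusted p = 0.38). H2-Ab1 in the 1751 remaining endothelial cells stood at 20.05, 31.6 and 10.996 CPM in knockout mice and at 44.99, 29.9 and 19.3 CPM in control mice. In mesothelial cells 6 of 9 members tested were higher, beside 42.7% of all genes, among them H2-Ab1 (2.78), Cd74 (2.83), H2-DMb1 and Ciita (0.97). In cholangiocytes 2 of 8 were higher, beside 41.8% of all genes, namely H2-Ab1 (1.59) and H2-DMb1 (3.47). All 60 contrasts with B and cDC1 cells stayed lower, where 41.9%, 40.6% and 41.3% of all genes were lower than in B cells and 37%, 38.2% and 37.5% lower than in cDC1 cells in mesothelial, endothelial and cholangiocyte cells in that order. The 1587 remaining mesothelial cells held 6 UMIs of H2-DMb2, 9 of H2-Oa and 69 of Ciita.

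Endothelial subtypes differed in their class II levels. Lymphatic endothelial cells (327 cells), named by Prox1, Mmrn1 and Ccl21a, held H2-Ab1 at 109, 59.2 and 24.4 CPM in knockout mice and 102, 47.9 and 132 CPM in control mice. Of 8 members tested, 5 were higher there than in T cells and none lower, beside 33% and 39.2% of all genes, with H2-Ab1 2.50 higher (SE 0.51, edgeR adjusted p = 0.00398) and H2-DMb1 3.75 higher (SE 0.40, edgeR adjusted p = 1.04e-07). Of these cells 21.9% (17.4% to 26.9%) held Cd74 after thinning. Lymphatic cells with a lineage-defining leukocyte UMI made up 30.9% of the subtype and held 59.4% of its UMIs of H2-Aa, H2-Ab1, H2-Eb1 and Cd74. Without them a library held as few as 15 lymphatic cells, below the minimum per library, so the contrast with T cells was not repeated. The part of leukocyte RNA in the lymphatic values was thus not tested, nor was that of depth.

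Venous endothelial cells (785 cells), named by Vwf, Selp and Rspo3, held H2-Ab1 at 10.5, 15.7 and 10.8 CPM in knockout mice and 30.7, 33.9 and 8.04 CPM in control mice. None of 6 members tested was higher there than in T cells, and 3 were lower, beside 36.2% and 40.9% of all genes. Venous Cd74 was lower than in T cells (log2 fold change −1.92, SE 0.39, edgeR adjusted p = 0.00295), and H2-Ab1 was at 0.42 (SE 0.22, edgeR adjusted p = 0.095). In sinusoidal cells, 1.85% (0.384% to 5.32%) held H2-Ab1 and 8.02% (4.34% to 13.3%) held Cd74, at a median depth of 5454 UMIs. Neither share exceeded that of T cells beyond these counting intervals, which pool the cells of 6 mice, with as few as 2 sinusoidal cells in a library, so neither is read as expression. Arterial cells (133) held H2-Ab1 in 2.54% (0.527% to 7.25%), and their Cd74 share of 3.39% lay below that of T cells.

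Knockout and control mice were then compared within 12 classes and subtypes with at least 20 cells in every library. No member passed an edgeR adjusted p of 0.05 in any of them in the main fit, with a filter on low counts and genotype alone. DESeq2 called 5 of 72 member tests that had an adjusted p, beside 0.631% of all gene tests in the 12. They were H2-Eb1 and Cd74 in mesothelial cells (5.53% of all genes called there), the same pair in NK/ILC1 cells (0.38%), and H2-Aa in neutrophils (0.0213%). Over the 12, edgeR without a filter on low counts called 7 of 120 member tests, beside 0.43% of all gene tests, and edgeR with the replicate block 4 of 89, beside 0.155%. At an unadjusted p under 0.05, edgeR had 5 members in mesothelial cells, beside 17% of all genes there, 4 in neutrophils (7.14%), 3 in NK/ILC1 cells (7.06%), 3 in venous endothelial cells (7.57%) and 2 in B cells (6.33%). There were none in lymphatic endothelial (11.3%), cholangiocyte (9.65%), cDC1 (7.13%), T (7.11%), endothelial (6.63%), plasma (5.58%) and fibroblast (3.22%) cells. Of all genes, edgeR with adjustment called 0% in 9 of the 12, 0.417% in lymphatic endothelial, 0.0193% in NK/ILC1 and 0.00835% in T cells.

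In mesothelial cells the classical chains, Cd74 and H2-DMb1 had higher values in knockout mice, none of which passed edgeR's adjusted threshold. Of its 10 members, 9 had a positive fold change, beside 50.3% of all genes, with a median of 0.36 against 0.00 for all genes on the log2 scale. H2-Aa, H2-Ab1, H2-Eb1 and H2-DMb1 had all 3 knockout mice above all 3 control mice, 4 of 10 members, beside 14.2% of all genes. H2-DMb1 averaged 30.0 ± 0.867 CPM in knockout mice and 21.4 ± 0.595 CPM in control mice (SD, n = 3 each), a log2 fold change of 0.47 (SE 0.11, edgeR adjusted p = 0.12). H2-Eb1 averaged 194 ± 29.2 CPM in knockout and 131 ± 21.0 CPM in control mice, 0.55 on the log2 scale (SE 0.16, edgeR adjusted p = 0.15). Cd74 averaged 1079 ± 337 CPM in knockout and 626 ± 126 CPM in control mice, 0.76 on the log2 scale (SE 0.27, edgeR adjusted p = 0.22), with the lowest knockout mouse inside the control range. DESeq2 gave adjusted p = 0.033 for H2-Eb1 and 0.019 for Cd74.

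The share of mesothelial cells with Cd74 was 58.0%, 67.4% and 78.0% in knockout mice, against 42.6%, 54.1% and 42.7% in control mice. The difference of 21.3 percentage points had an exact permutation p of 0.1, two-sided, the smallest that 3 against 3 mice can give. H2-Ab1 was found in 15.7%, 29.0% and 27.6% of knockout and 12.2%, 18.6% and 13.4% of control cells (9.37 points, exact permutation p = 0.2). The genotypes were apart in many other mesothelial genes too: 17% of all its genes had an unadjusted p under 0.05, the highest share among the 12 classes and subtypes, and 23.1% did not overlap between genotypes.

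Leukocyte markers were read beside these values. Summed over 6 T cell markers, mesothelial cells held 45.01, 42.5 and 43.2 CPM in knockout mice and 42.2, 89.9 and 55.4 CPM in control mice. Over 6 B cell markers they held 75.7, 47.3 and 31.5 CPM in knockout and 36.0, 63.2 and 79.5 CPM in control mice, and over 6 cDC1 markers 54.5, 57.7 and 56.6 CPM in knockout and 70.9, 73.4 and 61.0 CPM in control mice. None of the 18 markers was at 0. The T and B sums overlapped between genotypes and the cDC1 sums were lower in knockout mice. In cells without a lineage-defining leukocyte UMI, Xcr1, Clec9a and Wdfy4 were at 0 by the choice of cells, so their absence is no result. The cDC1 sum there, from the other cDC1 markers, still stood at 50.1 to 56.9 CPM in knockout mice and 55.0 to 77.8 CPM in control mice. The cDC1 sum therefore cannot be read as dendritic cell RNA. In the 1587 cells without a lineage-defining leukocyte UMI, Cd74 stood at 571, 799 and 1341 CPM in knockout mice and at 422, 662 and 382 CPM in control mice (log2 fold change 0.86, edgeR adjusted p = 0.40).

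**Figure D5:**
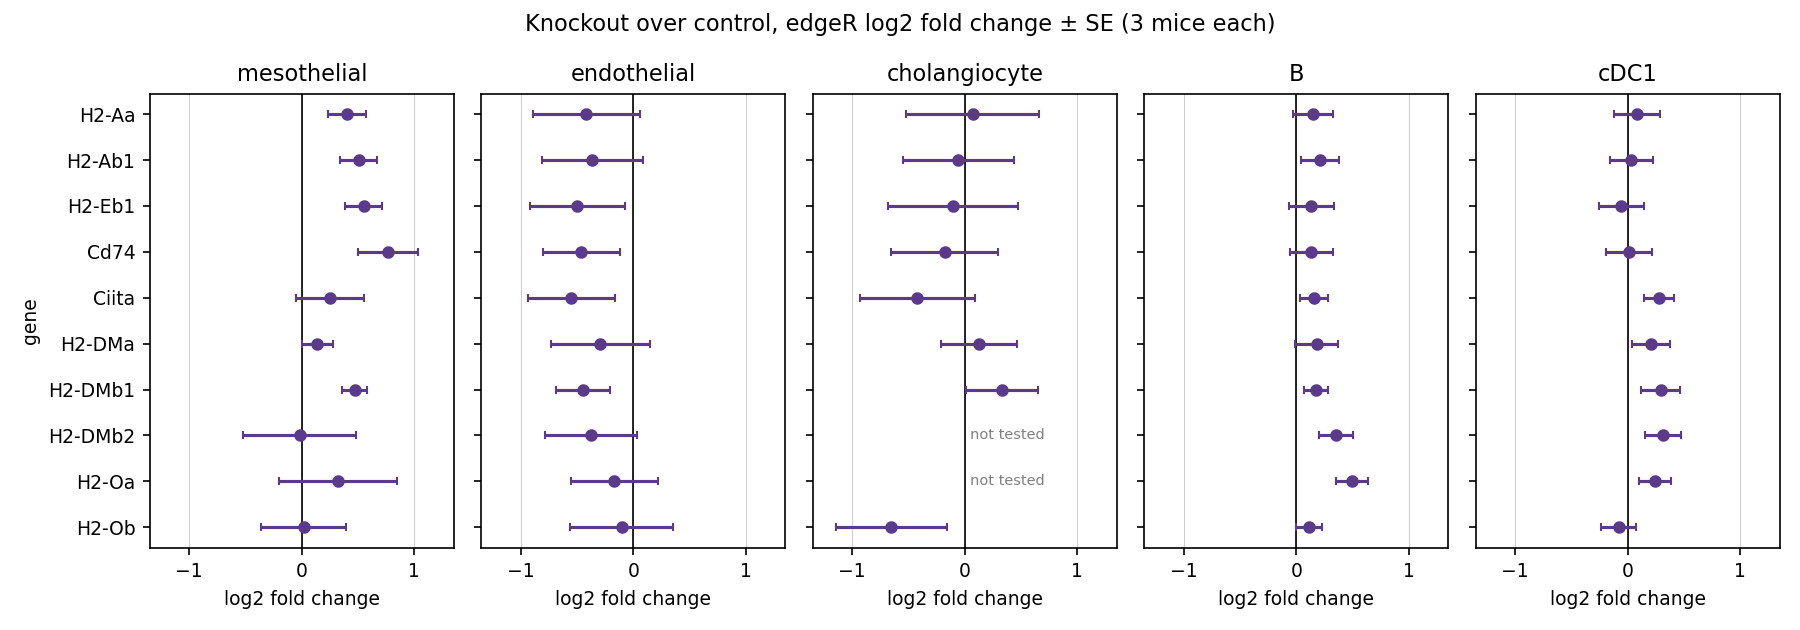
edgeR log2 fold change of knockout over control (points) with its SE (bars) for each of the 10 genes in 5 cell classes, 3 mice per genotype; genes that were too low to test are marked. Mesothelial values reach 0.76 for Cd74, all 10 endothelial values are below 0, all 10 B cell values are above 0, and none passed an adjusted p of 0.05.

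In the endothelial class, where Cdh5 is active, all 10 members had a negative fold change, where 51.4% of all genes had a positive one. The median was −0.40 (all genes 0.01), with edgeR adjusted p between 0.75 and 0.97. H2-Ab1 stood at 142, 184 and 248 CPM in knockout mice and at 108, 216 and 387 CPM in control mice, so the groups overlapped. Without control replicate 3, 8 of 10 members were positive with a median of 0.12, so the direction rested on that library. The sub-cluster of 186 cells took 5.71%, 8.44% and 5.68% of the endothelial cells in knockout mice, against 4.35%, 6.74% and 10.3% in control mice. The share with H2-Ab1 was 6.70%, 10.9% and 7.12% in knockout mice and 10.5%, 11.5% and 12.7% in control mice (−3.37 points, exact permutation p = 0.2).

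Cholangiocytes showed no common direction. Of 8 members tested 3 were positive, beside 49.8% of all genes, with a median of −0.08 (all genes 0.00). H2-Ab1 stood at 101, 44.8 and 30.9 CPM in knockout mice and at 48.7, 64.9 and 64.9 CPM in control mice, with both the highest and the lowest value among knockout mice. Without knockout replicate 1 none of 10 members was positive (median −0.47), and without knockout replicate 3, 7 members were (median 0.32).

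In venous endothelial cells all 5 members tested were negative, where 50.3% of all genes were positive, with a median of −1.18 (all genes 0.00). H2-Eb1 stood at 6.28, 12.2 and 4.92 CPM in knockout mice and at 33.0, 16.1 and 8.66 CPM in control mice (log2 fold change −1.48, SE 0.49, edgeR adjusted p = 0.55). The share of venous cells with H2-Ab1 was 0%, 4.17% and 2.14% in knockout mice and 10.4%, 6.54% and 4.70% in control mice (−5.11 points, exact permutation p = 0.1). T cell markers summed to 6.28, 8.71 and 4.92 CPM in knockout and 12.97, 8.04 and 5.57 CPM in control venous cells, and their part in the result was not tested. Venous cells came from endothelial sub-clusters 3 and 4, with pooled H2-Ab1 at 11.1 and 21.0 CPM. Sub-cluster 3 took 25.3%, 9.28% and 17.4% of endothelial cells in knockout and 8.70%, 7.66% and 16.7% in control mice. Sub-cluster 4 took 9.23%, 11.8% and 17.99%, against 29.5%, 17.3% and 10.3%. H2-Ab1 averaged 7.22 (knockout) and 22.9 CPM (control) in sub-cluster 3, and 19.2 and 24.6 CPM in sub-cluster 4, with overlapping mice. The part of their mix was not tested. In lymphatic endothelial cells all 4 members tested were negative (median −0.61), where 51.7% of all genes were positive, with edgeR adjusted p between 0.75 and 0.96.

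Within B cells the largest member fold changes were those of H2-Oa and H2-DMb2, and within cDC1 cells those of H2-DMb2, H2-DMb1 and Ciita. None passed the adjusted threshold in edgeR's main fit. In B cells all 10 members were positive, beside 48.3% of all genes, with a median of 0.17 (all genes −0.01). H2-Oa averaged 169.7 ± 19.6 CPM in knockout and 119 ± 16.8 CPM in control B cells (SD, n = 3 each), 0.49 on the log2 scale (SE 0.14, edgeR adjusted p = 0.51). H2-DMb2 was at 0.35 (SE 0.15, edgeR adjusted p = 0.74). Every knockout B cell value of these genes was above every control value, 2 of 10 members, beside 5.47% of all genes. T cell markers in the B class summed to 18.7, 27.8 and 17.0 CPM in knockout mice and 28.3, 204 and 30.5 CPM in control mice. B cell markers there summed to 7670, 8144 and 7825 CPM in knockout mice and 7719, 6906 and 7340 CPM in control mice. In cDC1 cells 8 of 10 were positive, beside 50.3% of all genes, with a median of 0.14. Ciita averaged 262 ± 5.38 CPM in knockout and 209 ± 11.2 CPM in control cDC1 cells, 0.28 on the log2 scale (SE 0.13, edgeR adjusted p = 0.71). Ciita, H2-DMb2 and H2-Oa had all knockout mice above all control mice, 3 of 10 members, beside 7.96% of all genes. B cell markers in the cDC1 class summed to 211, 161 and 82.8 CPM in knockout mice and 73.1, 22.4 and 52.4 CPM in control mice, without overlap. Its cDC1 markers summed to 3410, 3174 and 3250 CPM in knockout mice and 2642, 2831 and 2991 CPM in control mice, also without overlap. The part of B cell RNA or of the make-up of the class in these values was not tested.

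In NK/ILC1 cells and neutrophils the low class II signal had lower values in knockout mice, without passing the adjusted threshold in edgeR's main fit. Cd74 stood at 128, 248 and 131 CPM in knockout and 310.3, 352 and 449.9 CPM in control NK/ILC1 cells (log2 fold change −1.18, SE 0.24, edgeR adjusted p = 0.26, DESeq2 adjusted p = 4.07e-05). It was the 1 member of 10 whose groups did not overlap, beside 11.7% of all genes. B cell markers in the same cells summed to 26.004, 43.6 and 22.3 CPM in knockout mice and 15.7, 113 and 18.6 CPM in control mice. T cell markers summed to 1655, 1503 and 1480 CPM in knockout mice and 1113, 1161 and 1248 CPM in control mice, without overlap. In the T class the same markers summed to 3388, 3208 and 3308 CPM in knockout mice and 2975, 2732 and 3029 CPM in control mice. The class named NK/ILC1 thus also carried T cell markers at a high level. Whether the make-up of the class has a part in its Cd74 values was not tested. In neutrophils H2-Aa stood at 48.7, 35.7 and 58.9 CPM in knockout mice and 126, 121 and 214 CPM in control mice (log2 fold change −1.77, SE 0.29, edgeR adjusted p = 0.083, DESeq2 adjusted p = 0.0059). B cell markers there summed to 107, 213 and 85.6 CPM in knockout mice and 322, 374 and 244 CPM in control mice, and 88.3% of the 4 genes' UMIs lay in the top 5% of neutrophils. With doublets kept in, the H2-Aa value was −0.27. The part of B cell RNA in the neutrophil values was not tested.

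Whether the genotype difference itself differed between a presenter class and B cells was tested as an interaction. No member passed edgeR's adjusted threshold in mesothelial, endothelial or cholangiocyte cells, beside 0%, 0% and 0.028% of all genes, and DESeq2 was not run for it. At an unadjusted p under 0.05 there were 0 of 10 members in mesothelial, beside 6.51% of all genes, 1 of 10 in endothelial (H2-DMb1, −0.65, SE 0.20), beside 5.26%, and 2 of 10 in cholangiocyte cells (H2-Oa, −1.08, and H2-Ob, −0.91), beside 6.18%. The mesothelial Cd74 term was 0.59 (SE 0.35, edgeR adjusted p = 0.78).

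The machinery around the members was read from 4 lists. No gene of any list was called in any class. In mesothelial cells 3 of 7 RFX, NF-Y and CREB1 genes, which bind the class II promoter module, had a positive fold change (median −0.05). Of 9 endosomal processing genes tested 6 were positive (median 0.14), led by Lgmn, which encodes the protease legumain, at 60.5, 57.8 and 65.4 CPM in knockout and 41.5, 56.5 and 47.3 CPM in control mice (log2 fold change 0.32, SE 0.13, edgeR adjusted p = 0.26). Of 8 interferon-gamma signalling genes 2 were positive (median −0.18). Irf1, a transcription factor induced by interferon-gamma that acts on Ciita, stood at 103, 99.6 and 98.2 CPM in knockout mice and at 113, 157 and 152.9 CPM in control mice (−0.52, SE 0.14, edgeR adjusted p = 0.14). Ciita in the same cells was at 0.25 (SE 0.30, edgeR adjusted p = 0.72). A link between Irf1 and the class II values was not tested. Of 3 costimulatory and checkpoint ligands tested 1 was positive.

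In endothelial cells 4 of 7 promoter-binding, 6 of 9 processing, 4 of 8 interferon-gamma and 1 of 5 costimulatory genes were positive, with medians of 0.00, 0.09, 0.03 and −0.45 in that order. Cd80, a costimulatory ligand, stood at 3.07, 3.00 and 0.958 CPM in knockout mice and at 4.42, 4.37 and 9.96 CPM in control mice (−1.59, SE 0.52, edgeR adjusted p = 0.74). Lgmn stood at 305, 199 and 193 CPM in knockout endothelial cells and at 168, 171 and 175 CPM in control ones (0.39, SE 0.18, edgeR adjusted p = 0.74). In cholangiocytes 2 of 7, 5 of 9, 1 of 8 and 0 of 2 were positive in the same order of lists. Ifngr2, a chain of the interferon-gamma receptor, stood at 18.3, 17.0 and 16.8 CPM in knockout and 17.1, 24.8 and 22.96 CPM in control cholangiocytes (−0.35, SE 0.15, edgeR adjusted p = 0.50). Rfxap, a subunit of RFX, stood at 38.6, 33.9 and 39.5 CPM in knockout and 27.4, 30.9 and 35.0 CPM in control cholangiocytes (0.27, SE 0.13, edgeR adjusted p = 0.53).

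Across the 15 named classes, the accessory members followed the mean of H2-Aa, H2-Ab1, H2-Eb1 and Cd74 to different degrees. Pearson's r of log2(CPM + 1) was 0.928 for Ciita, 0.909 for H2-DMb1 and 0.906 for H2-DMa, against 0.767 for H2-DMb2, 0.668 for H2-Oa and 0.628 for H2-Ob. The classes share libraries and differ in depth, so these values are descriptions. Among 7951 other genes with at least 50 CPM in a class, the highest r belonged to Irf5 (0.912), Ly86 (0.912), Gm6377 (0.909) and Rassf4 (0.906), followed by Cd180 (0.884), Pld4 (0.865), Pkib (0.857) and Prcp (0.854). Ly86 and Cd180 were highest in B cells, at 281 and 316 CPM, Gm6377 and Pkib in cDC1 cells, at 80.6 and 497 CPM, and Pld4 in plasmacytoid dendritic cells, at 473 CPM. Irf5, Rassf4 and Prcp were highest in mature dendritic cells, at 231, 125 and 177 CPM.

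Some clusters that stayed unnamed also carried class II RNA. A Cd209a-led myeloid sub-cluster of 152 cells held H2-Ab1 at 3719.5 CPM and Cd74 at 11469.5 CPM. A cluster of 318 cells led by Osr1 held H2-Ab1 at 133 CPM and Cd74 at 658 CPM. A cluster of 306 cells with both biliary and mesothelial markers held 132 and 661 CPM of the same genes. These levels were close to those of the named mesothelial class. A CD8-led cluster of 3620 cells, outside the named T class, held H2-Ab1 at 7.27 CPM, near the T class level.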

How the data were processed

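Gene by cell UMI counts of 6 libraries (10x Genomics 3′ chemistry) were analysed as deposited. Per the submitters' processing notes the authors used Cell Ranger 7.1.0, Seurat 4.1.1 and the mm10 build. The role of Seurat and the annotation release are not given in the sources used here. The labels call the replicates biological, and each was taken as 1 mouse. The deposited counts were kept for barcodes with 300 or more genes and no more than 20% of UMIs from mitochondrial genes (42682 of 44656 barcodes).

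Scrublet's automatic threshold failed in control replicates 2 and 3 (0 and 1 cells called), so the mean threshold of the other libraries, 0.2644, was used throughout, and 938 cells were removed. The remaining 41744 cells were clustered (scanpy 1.11.5, igraph 0.11.9, Python 3.11.15) on 3000 variable genes without the class II members, with 40 principal components, 20 neighbours and resolution 1 (alternative 2; sub-clusters 0.6). Clusters were named from marker lists, with at least 3 detected markers. UMIs were summed per mouse and class and tested with edgeR 4.0.16 (R 4.3.3; TMM, filterByExpr, robust quasi-likelihood), adjusted by Benjamini-Hochberg over all genes tested, with DESeq2 1.42.0 as an alternative. Cell shares were taken after thinning to 2000 UMIs, leaving out shallower cells (1096 T, 15 mesothelial and 115 cholangiocyte cells). Tests were checked on simulated counts.

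Same-numbered mice did not all deviate together (correlations between −0.16 and 0.28, with no class in which every pair was above 0.1), so the main fits used no pairing. The mice numbered 2 had positive correlations in each class examined (0.0305 to 0.281). Whether mice were paired is therefore not settled. The members, marker lists, pathway lists and tests were chosen with earlier results of these data known. The naming rules, the common doublet threshold, the sub-clustering, the 23 lineage-defining leukocyte genes and the venous and lymphatic contrasts were chosen after values had been seen. Genes named beside the members are those of the pathway lists with the smallest p in each direction in 3 classes, and the 8 genes most correlated with the classical chains and Cd74.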

Additional observations from a re-analysis of the deposited data

How the results depend on the processing

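No member was called between knockout and control mice in edgeR's main fit. DESeq2 called 5 (0.631% of all gene tests), no filter on low counts 7 (0.43%), and the fit with the replicate block 4 (0.155%; H2-Oa in B cells, H2-Aa, H2-Eb1 and Cd74 in neutrophils). Leaving out 1 mouse gave 0 to 1 calls (0.00984% to 0.128% of all gene tests). Members higher than in T cells numbered 9 in endothelial cells (39.9% of all genes) and 6 in cholangiocytes (43.5%). Without cells holding a lineage-defining leukocyte UMI they numbered 1 (39.5%) and 2 (41.8%). Leaving out 1 mouse gave 9 to 9 in endothelial, 6 to 7 in mesothelial, 5 to 6 in cholangiocyte, 0 to 1 in venous and 5 to 6 in lymphatic endothelial cells, and 60 to 60 lower than in B or cDC1 cells. With all mice, 39.9%, 44.4%, 43.5%, 36.2% and 33% of all genes were higher than in T cells in that order. Between 34.8% and 40% of all genes were lower than in B or cDC1 cells.

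Without leukocyte UMI cells, the log2 difference of endothelial from T cells turned round for Cd74 (−0.47), H2-DMa (−1.39), H2-Oa (−4.03) and H2-Ob (−1.09), and that of mesothelial cells for H2-DMa (−0.0344). Leaving out 1 mouse gave −1.12 to 0.045 for H2-Oa and −0.59 to 0.11 for H2-Ob in lymphatic endothelial cells, and −0.61 to 0.12 for H2-Aa in venous cells. The knockout minus control difference in the share of cholangiocytes with H2-Ab1 (−0.633 points) was 2.03 without thinning, 0.0134 without leukocyte UMI cells and −5.55 to 2.40 without 1 mouse. For Cd74 (−5.08 points) it was 3.63 without thinning and −12.8 to −0.247 without 1 mouse. The cause was not tested. Of the other settings for single genes that left out no mouse, 223 kept direction and side of the threshold, 18 gained a call and 6 lost one. The planned removal of cells with any leukocyte marker left too few cells for a value. With 3 mice a group, an exact test cannot go below 0.1.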
